A study of Mus musculus with 2 samples.

Results

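The genes described here are 8 lipid-handling genes and genes known from lipid-associated macrophages: Fabp4, Fabp5, Cd36, Lpl, Apoe, Trem2, Gpnmb and Spp1. They were chosen by symbol, and all 8 were among the 32285 genes of both count matrices. The matrices came from single-cell RNA sequencing of subcutaneous mouse tumours. Mice received a diet free of serine and glycine (1 library) or a control diet (1 library), while the sources used here do not give the number of mice behind each library, their strain and age, or the tumour line. Each diet has 1 library, so no test could be made, and every diet difference below compares 2 libraries without a replicate check. The sample titles give the diets only as SG and CT, which were read as serine/glycine-free and control from the series' design text, and every diet direction rests on that reading. The extraction protocol in the labels names human heart tissue, while the organism and tissue labels name mouse tumour, which was followed here. Intervals are exact 95% intervals and cover counting error only.

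Fabp4 and Fabp5 encode cytosolic carriers that bind fatty acids and pass them on inside the cell. Cd36 encodes a surface receptor that takes up long-chain fatty acids and oxidised lipoproteins, and Lpl encodes lipoprotein lipase, which frees fatty acids from triglyceride-rich lipoproteins at the vessel wall. Apoe encodes a lipoprotein component that macrophages secrete when they export cholesterol. Trem2 encodes a lipid-sensing receptor of macrophages that signals through the adaptor Tyrobp, and Gpnmb encodes a transmembrane glycoprotein of lysosome-rich cells. Spp1 encodes osteopontin, a secreted ligand of integrins and Cd44. Macrophages that carry Trem2, Gpnmb, Spp1 and Fabp5 together have been called lipid-associated in fat tissue and in tumours, while Fabp4 and Cd36 are also known from capillary endothelium.

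After filtering, 19106 cells of the serine/glycine-free library and 13588 cells of the control library were kept. They carried 156639681 and 161608837 unique molecular identifiers (UMIs, each marking 1 captured RNA molecule). The median depth per cell was 7305 UMIs under the serine/glycine-free diet and 11310.5 UMIs under the control diet, and 71 kept barcodes occurred in both libraries. Cells were assigned by marker gates that used none of the 8 genes. The macrophage gate held 1474 and 1172 cells, the endothelial gate 49 and 33 cells, and the tumour gate, defined by Hmga2, Rhox5 and Krt20, 13046 and 10414 cells. In both libraries at least 10% of the gated cells held a UMI of every own marker, which were 8 for macrophages, 9 for endothelium and 3 for tumour cells. Levels are given in CPM, a gene's UMIs per 1000000 UMIs of the gated cells.

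On the GRCm38 assembly the 8 genes lie on 6 chromosomes. Fabp5 (chr3:10012548-10016607, forward strand) and Fabp4 (chr3:10204088-10208576, reverse strand) lie close together, with 196 kb between their starts. The 2 other fatty acid-binding protein genes between them, Pmp2 and Fabp9, held 1 and 0 UMIs in the serine/glycine-free library and none in the control library. Cd36 (chr5:17781690-17888801, reverse strand) and Spp1 (chr5:104435118-104441050, forward strand) share chromosome 5. Gpnmb lies at chr6:49036546-49070929 and Trem2 at chr17:48346401-48354147, both on the forward strand. Apoe lies at chr7:19696109-19699188 on the reverse strand and Lpl at chr8:68880491-68907448 on the forward strand.

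The 150 bases before the annotated start are shown for 4 genes. Apoe and Trem2 are shown because most of their UMIs came from macrophages and Trem2 was among the 3 genes whose level across gates was most like that of Apoe. Gpnmb and Spp1 are shown because most of their UMIs came from tumour-gated cells. The windows come from RefSeq on GRCm38.p6, run 5′ to 3′ on the gene's own strand and lie at chr7:19699189-19699338 (Apoe, the first of its listed starts), chr17:48346251-48346400 (Trem2), chr6:49036368-49036517 (Gpnmb) and chr5:104434961-104435110 (Spp1, the first of its listed starts). Capitals mark the purine-rich motif GAGGAAG, a sequence that ETS factors such as PU.1 can bind, on either strand (its reverse complement is CTTCCTC). Shorter ETS matches were not searched.
Apoe: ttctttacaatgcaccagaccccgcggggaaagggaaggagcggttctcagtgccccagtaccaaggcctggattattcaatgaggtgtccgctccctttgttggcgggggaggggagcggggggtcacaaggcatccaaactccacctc
Trem2: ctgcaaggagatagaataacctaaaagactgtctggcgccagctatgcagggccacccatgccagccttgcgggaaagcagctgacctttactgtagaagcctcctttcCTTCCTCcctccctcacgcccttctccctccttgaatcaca
Gpnmb: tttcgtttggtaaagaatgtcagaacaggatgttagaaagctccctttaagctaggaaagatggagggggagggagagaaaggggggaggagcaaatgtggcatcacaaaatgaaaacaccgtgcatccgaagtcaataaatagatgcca
Spp1: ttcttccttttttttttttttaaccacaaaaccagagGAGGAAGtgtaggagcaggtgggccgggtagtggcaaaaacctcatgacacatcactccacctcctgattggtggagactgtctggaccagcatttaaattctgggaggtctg
The motif stood 41 bases before the start of Trem2 and 113 bases before the start of Spp1, and its letters were not in the Apoe and Gpnmb windows. It was found in 6.85% of 32851 promoter windows of the same length. The E-box CACGTG, the M-box CATGTG, the AP-1 motif TGACTCA and the TATA box TATAAA, each searched on both strands, were in none of these 4 windows and in 4.30%, 7.15%, 2.84% and 7.57% of all windows. These matches describe letters only.

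The 8 genes split into 3 groups by where their UMIs came from, and the groups were the same under both diets. Apoe and Trem2, and to a lesser extent Fabp5, came mainly from macrophage-gated cells. Fabp4 came mainly from the few endothelial cells, Cd36 from macrophages and endothelium in near-equal shares, and Lpl from fibroblasts and macrophages. Gpnmb and Spp1 came mostly from tumour-gated cells.

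Macrophage-gated cells held 84.5% of all Apoe UMIs under the serine/glycine-free diet and 90.7% under the control diet. For Trem2 the shares were 75.3% and 77.98%, and for Fabp5 55.7% and 59.0%. Endothelial cells, 0.257% and 0.243% of kept cells, held 53.0% and 74.8% of all Fabp4 UMIs. Cells that passed more than 1 gate held a further 26.7% and 12.8% of Fabp4. In the serine/glycine-free library 910 of those 1502 UMIs lay in 11 cells that passed both the endothelial and the tumour gate, and in the control library 240 of 373 lay in 5 such cells.

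Cd36 had 33.7% and 36.4% of its UMIs in macrophages and 31.9% and 33.5% in endothelium. Dendritic cells held another 4.32% and 14.2%. Fibroblasts, recognised by collagen and matrix genes such as Dpt and Lum, held 38.1% of Lpl UMIs under the serine/glycine-free diet and 22.75% under the control diet, beside 26.3% and 30.9% in macrophages. Tumour-gated cells held 87.9% and 94.8% of Gpnmb and 92.9% and 95.9% of Spp1. Macrophages held 0.929% and 0.393% of Gpnmb and 0.478% and 0.652% of Spp1. Cells that passed no gate held 7.90% and 3.23% of Gpnmb, at 74.9 and 45.9 CPM, which is above its tumour-gate level.

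**Figure D1:**
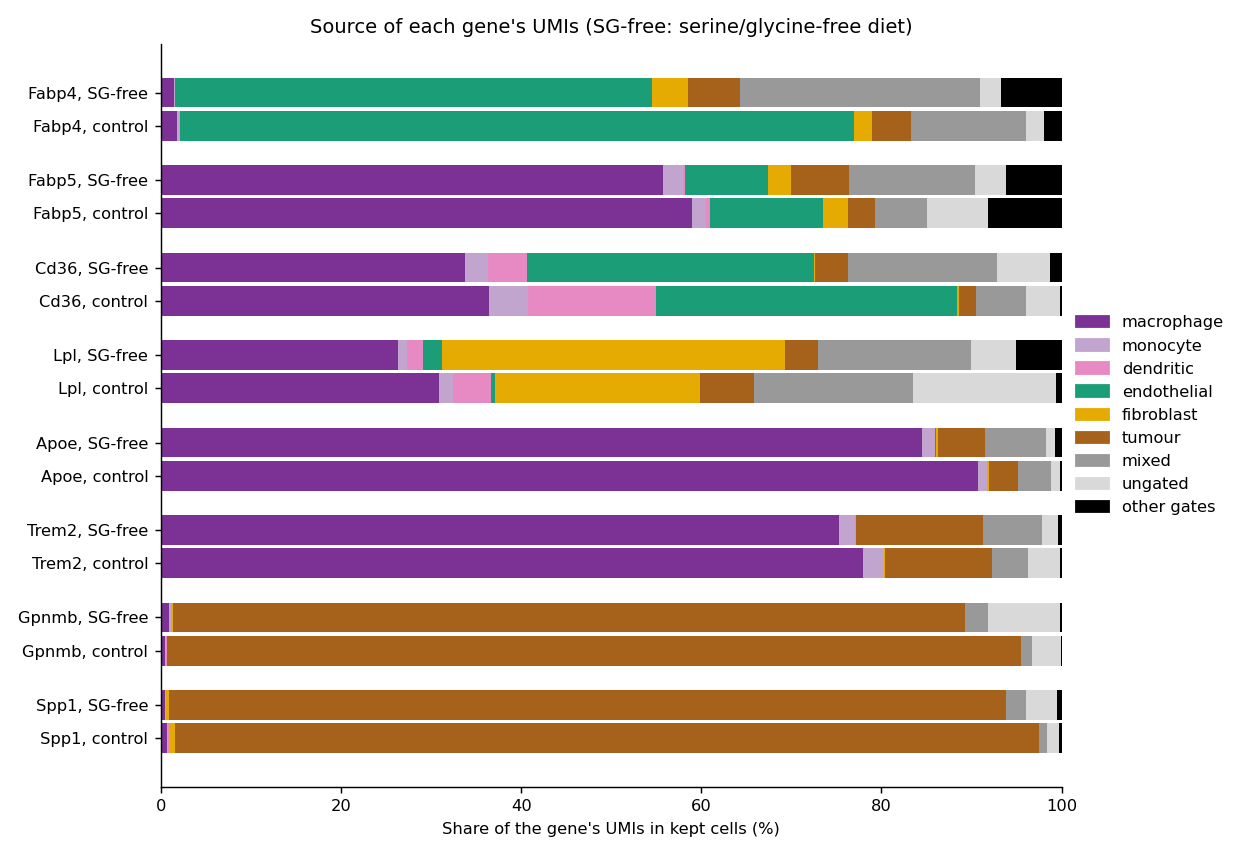
Share of each gene's UMIs (percent, horizontal axis) by marker gate, with the serine/glycine-free library above the control library for each gene. Macrophages lead for Fabp5, Apoe and Trem2, endothelium for Fabp4, and tumour cells for Gpnmb (87.9% and 94.8%) and Spp1 (92.9% and 95.9%).

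Single cells carried very different parts of these totals. The cell with most Fabp4 was endothelial in both libraries and held 552 UMIs (9.80% of the library's Fabp4) under the serine/glycine-free diet and 236 UMIs (8.08%) under the control diet. Only 14 and 11 cells held 50% of all Fabp4 UMIs, and 14 and 19 of the 20 leading Fabp4 cells were endothelial. The serine/glycine-free library also held 1 adipocyte-gated cell with 233 Fabp4 UMIs, and the control library held no cell of that gate. For Cd36, 57 and 32 cells held 50% of the UMIs, and for Lpl 38 and 27 cells.

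Fabp5 was spread over 139 and 84 cells by the same measure. Among its 20 leading cells, 8 in each library were macrophages and 4 and 6 were endothelial. Apoe was spread over 365 and 274 cells, and all 20 and 19 of its leading cells were macrophages. Trem2 needed 403 and 322 cells, with 16 macrophages among the 20 leading cells in each library. At the other end, 1036 and 772 cells held 50% of Gpnmb and 3151 and 2734 cells held 50% of Spp1, so no small set of cells carried either gene.

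**Figure D2:**
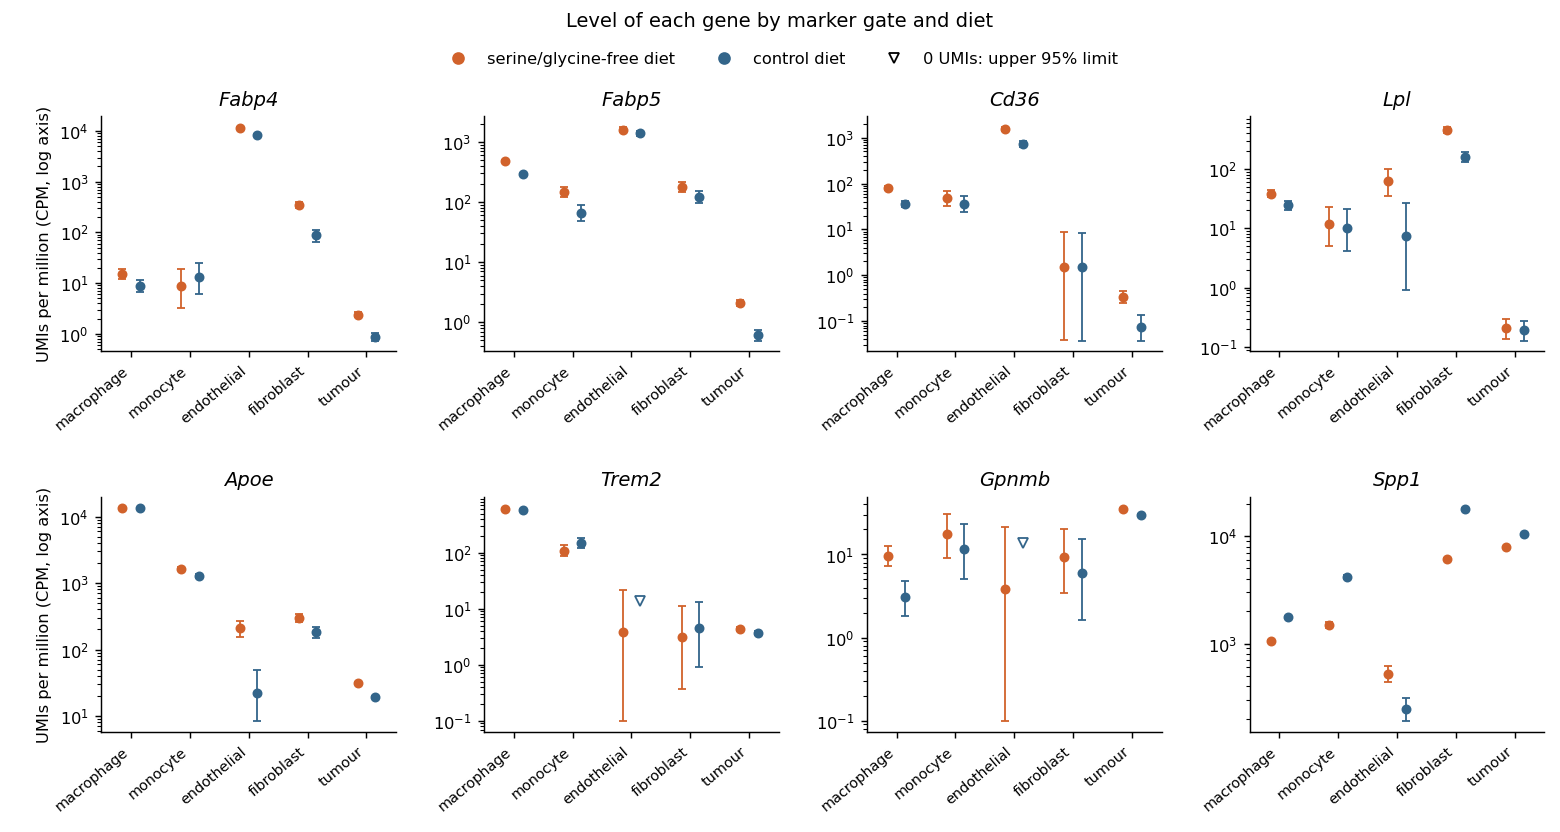
Level of each gene (CPM, log axis) in 5 marker gates, with the serine/glycine-free library left of the control library and bars for the exact 95% Poisson interval. Open triangles stand at the upper limit where no UMI was found. Fabp4 and Cd36 are highest in the endothelial gate, Lpl in fibroblasts, Apoe and Trem2 in macrophages, Gpnmb in tumour cells, and Spp1 in fibroblasts under the control diet (18003 CPM) and in tumour cells under the serine/glycine-free diet (7919 CPM).

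In macrophages the fatty acid genes were higher with serine/glycine-free feeding, Apoe and Trem2 were nearly level, and Spp1 was lower. Of the 8 genes, 6 were higher and 2 lower, with a median log2 ratio of 0.68 against −0.03 over all 11296 genes with at least 20 UMIs. Past 1.5-fold, 5 of the 8 were higher and 1 was lower, where 5.74% of all genes were past 1.5-fold higher and 5.67% past 1.5-fold lower. All 8 had at least 20 UMIs in the 2 libraries together.

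Cd36 had 80.1 CPM in macrophages under the serine/glycine-free diet, against 35.6 CPM under the control diet, a log2 ratio of 1.17 (interval 0.93 to 1.42), and 1.91 with cells thinned to 1000 UMIs. A Cd36 UMI was found in 14.9% and 9.13% of macrophages, at median depths of 3311 and 4683.5 UMIs. In the shallower T cells (1673 and 2150 UMIs) one was found in 0 of 1181, which allows up to 0.254% of cells with a captured UMI at that depth, and in 1 of 387. Fabp5 had 480 CPM, against 294 CPM (0.71, interval 0.62 to 0.80). Lpl had 38.2 CPM, against 24.3 CPM (0.65, interval 0.34 to 0.97). These uptake and carrier genes were higher by more than counting error in the 1474 macrophages of the serine/glycine-free library. Fabp4 was far lower in macrophages than in endothelium, at 15.4 CPM under the serine/glycine-free diet and 8.78 CPM under the control diet (0.81, interval 0.29 to 1.34). Its macrophage level rested on 81 and 52 UMIs, with 28 and 8 cells holding 50% of them, and with cells that passed a second gate counted in the log2 ratio was 1.60. The summed endothelial markers in the same cells stood at 26.3 and 30.9 CPM, which is lower under the serine/glycine-free diet, and 2 and 1 of the 9 markers were at 0. Of 10 genes of capillary endothelium in the same cells, 6 were higher and 2 lower under the serine/glycine-free diet. Where 5.74% of all genes were past 1.5-fold higher, the 3 of these 10 with at least 20 UMIs all were (median 0.85). Among them Rgcc had 34.4 CPM against 19.1 CPM and Cav1 20.4 CPM against 11.5 CPM. The part of endothelial RNA in the Fabp4 difference was not tested.

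Apoe had 13284 CPM in macrophages under the serine/glycine-free diet and 13428 CPM under the control diet. The log2 ratio of −0.02 (interval −0.03 to −0.0009) was no larger than choices of processing, since its sign turned under 4 of the 13 alternatives tried. Trem2 had 610 CPM and 588 CPM (0.05, interval −0.02 to 0.12). Thus neither the cholesterol carrier nor the lipid receptor differed by more than a few percent between the libraries. A Trem2 UMI was found in 73.9% of macrophages under the serine/glycine-free diet and 80.5% under the control diet, at median depths of 3311 and 4683.5 UMIs. With each cell thinned to 1000 UMIs, which left out 30 and 19 macrophages, the shares were 42.0% and 41.4%. In T cells, which should lack Trem2, the unthinned shares were 0.931% and 0.775% at median depths of 1673 and 2150 UMIs.

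Gpnmb was scarce in macrophages, with 51 UMIs (9.70 CPM) under the serine/glycine-free diet and 18 UMIs (3.04 CPM) under the control diet, a log2 ratio of 1.68 (interval 0.88 to 2.54). Only 2.44% and 1.11% of macrophages held a Gpnmb UMI, against 24.2% and 25.6% of the deeper tumour cells (median 9276 and 13004 UMIs) and 0.423% and 0.258% of T cells. The summed tumour markers in macrophages were also higher, at 99.1 CPM under the serine/glycine-free diet and 57.4 CPM under the control diet, with none of the 3 markers at 0. Their part in the Gpnmb difference was not tested.

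Spp1 had 1056 CPM in macrophages under the serine/glycine-free diet, against 1760 CPM under the control diet (−0.74, interval −0.78 to −0.69). The direction was the same under every alternative tried, but the size depended on how strictly the gate was drawn, and the log2 ratio was −0.29 with 4 marker genes required and −1.03 with 2. The summed tumour markers in the same cells stood at 99.1 CPM under the serine/glycine-free diet and 57.4 CPM under the control diet. The part of tumour RNA in the Spp1 level and its difference was not tested. A Spp1 UMI was found in 76.1% and 86.4% of macrophages, while T cells showed one in 66.9% and 74.2%, at lower depth. Thinned to 1000 UMIs, the shares were 42.7% and 49.3% in macrophages and 57.1% and 51.4% in T cells, so the macrophage share was below that of T cells in both libraries and is not read as a difference between diets.

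Few macrophages stood out for Spp1. The per-cell median was 433 CPM under the serine/glycine-free diet and 513 CPM under the control diet, and the 90th percentile was 2031 and 3847 CPM. The diet difference was larger in the upper tail of cells than at the median, and 75 and 57 macrophages held 50% of their Spp1.

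**Figure D3:**
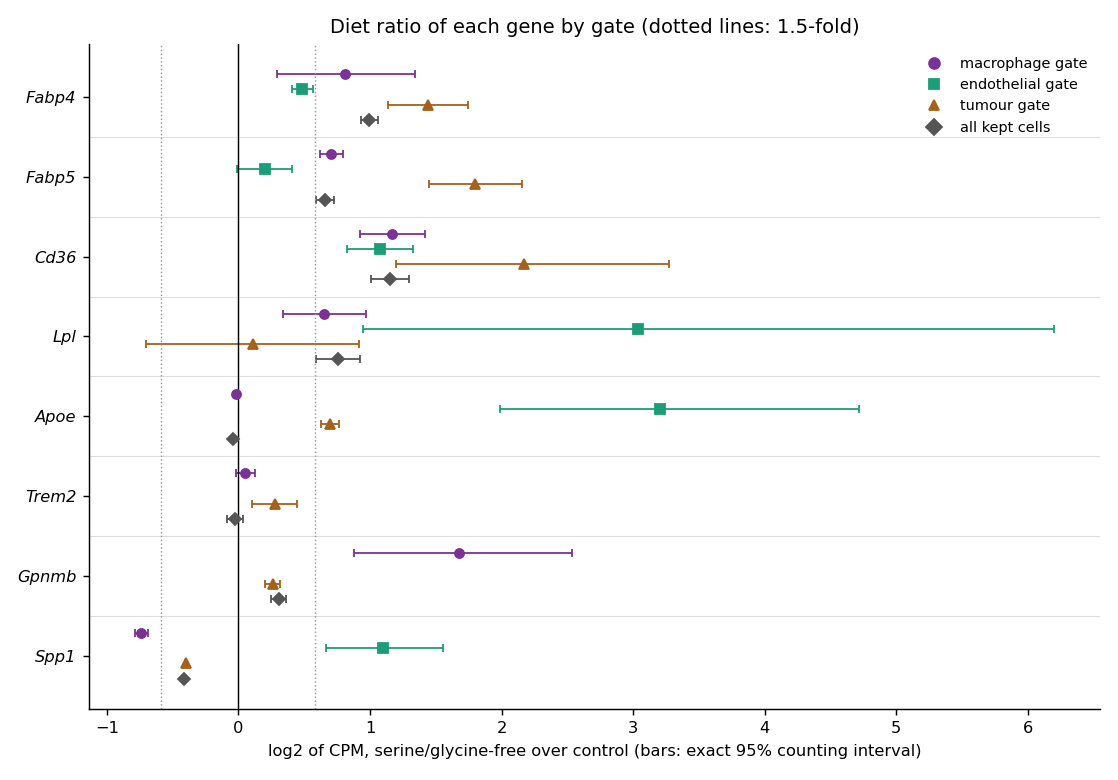
log2 ratio of the level under the serine/glycine-free diet over the control diet for each gene (horizontal axis, bars for the exact 95% interval) in the macrophage, endothelial and tumour gates and in all kept cells, with dotted lines at 1.5-fold. Cd36 lies right of the upper line in all 4 rows, while Spp1 lies left of 0 in macrophages (−0.74) and tumour cells (−0.40) and right of 0 in endothelium (1.10).

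Pairs of genes known from lipid-associated macrophages were followed across single macrophages. In cells thinned to 1000 UMIs, Fabp5 was found in 27.4% of macrophages with Trem2 and 20.4% of those without under the serine/glycine-free diet, and in 18.2% and 15.2% under the control diet. Spp1 was found in 42.3% of macrophages with Trem2 and 43.0% of those without, and in 46.5% and 51.2% under the control diet. Gpnmb and Trem2 were found together in 2 of 1444 thinned macrophages under the serine/glycine-free diet and in 0 of 1153 under the control diet. Only 13 and 3 thinned macrophages held a Gpnmb UMI, so no absence of the pair is read from these counts. Cd36 was found in 10.98% of macrophages with Fabp5 and 5.33% of those without under the serine/glycine-free diet, but in 1.05% and 2.39% under the control diet, where only 25 macrophages held a Cd36 UMI after thinning. These pairs were chosen after the levels had been seen.

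Macrophages differ in MHC class II, the peptide-presenting molecules encoded by H2-Aa, H2-Ab1 and H2-Eb1. Cd74 was counted with these genes, and the serine/glycine-free library had more of all 4 (median log2 ratio 1.38). The macrophages were therefore split at the pooled median of the summed level, 7577 CPM, which put 945 cells above and 529 cells at or below it under the serine/glycine-free diet and 378 and 794 under the control diet. The split is a range of 1 score and not a cell type, and 118 and 84 cells lay within 20% of the line. Apoe was higher above the line than below it in both libraries, at 15205 against 10102 CPM under the serine/glycine-free diet and 15178 against 12675 CPM under the control diet. Spp1 ran the other way, with 753 against 1556 CPM under the serine/glycine-free diet and 1369 against 1928 CPM under the control diet. Trem2 was also lower above the line, by smaller margins, at 569 against 679 CPM and 543 against 607 CPM.

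Cd36 differed in direction between the libraries. Under the serine/glycine-free diet it had 62.6 CPM above the line and 109 CPM below it, and under the control diet 49.4 CPM above and 29.7 CPM below. As a result its diet ratio was 1.88 (interval 1.55 to 2.21) in macrophages with low MHC class II and 0.34 (interval −0.03 to 0.72) in those with high MHC class II. Fabp5 was higher under the serine/glycine-free diet on both sides, by 0.92 (interval 0.76 to 1.07) above the line and 0.68 (interval 0.56 to 0.80) below it. Spp1 was lower on both sides, by −0.86 (interval −0.94 to −0.78) above and −0.31 (interval −0.37 to −0.25) below. Apoe was level above the line (0.00, interval −0.02 to 0.02) and lower below it (−0.33, interval −0.35 to −0.30), so the near-level total joined unequal parts.

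**Figure D4:**
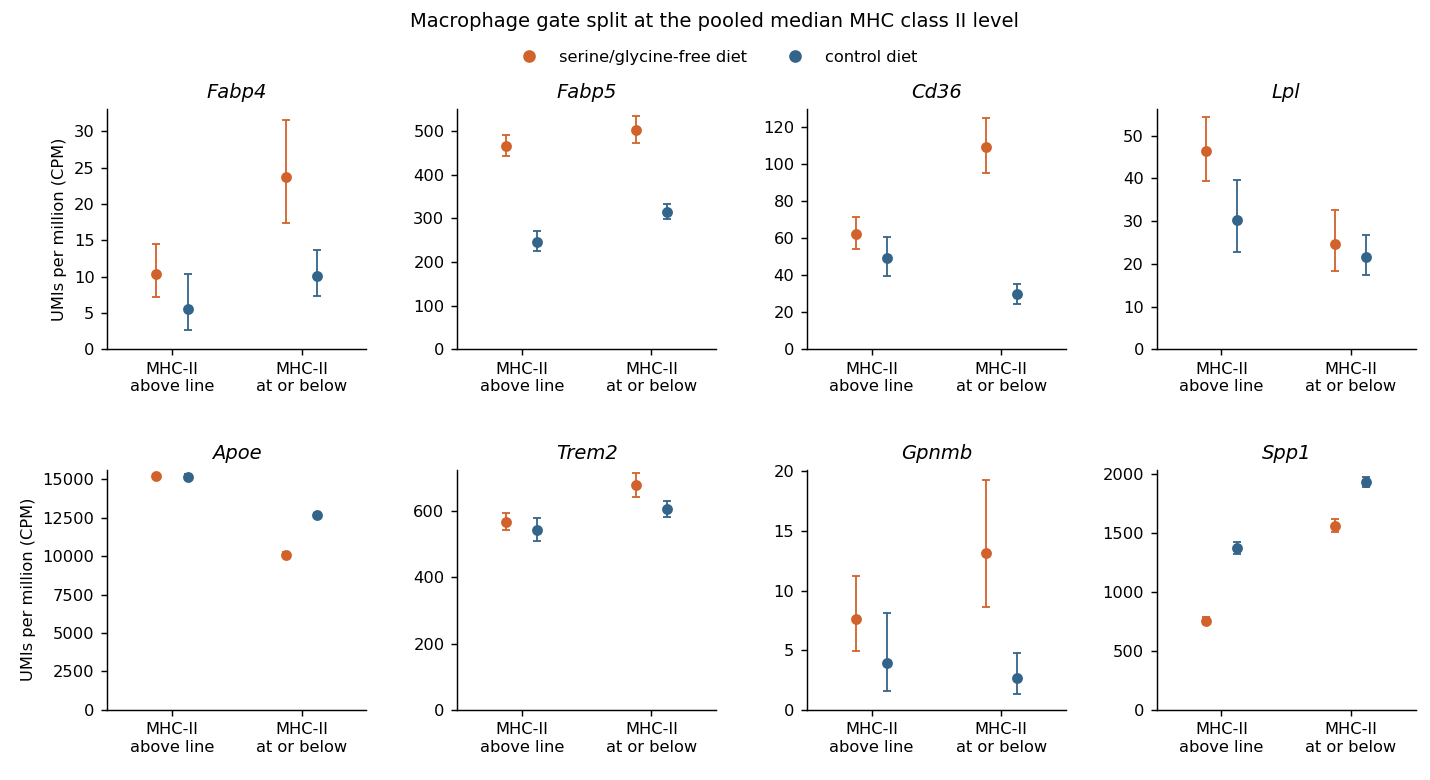
Level of each gene (CPM, linear axis from 0) in macrophages above and at or below the pooled median MHC class II level, with the serine/glycine-free library left of the control library and bars for the exact 95% Poisson interval. Cd36 is highest in macrophages with low MHC class II under the serine/glycine-free diet (109 CPM) and lowest in those with low MHC class II under the control diet (29.7 CPM).

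Lists of other lipid genes, of lipid-associated macrophage companions, of TREM2 partners and of osteopontin receptors were described in the same macrophages. Among 20 genes of lipoprotein and cholesterol handling, which include targets of the nuclear receptor LXR, 14 were higher and 6 lower under the serine/glycine-free diet (median 0.16), with 1 past 1.5-fold in each direction. Among 20 genes of fatty acid uptake, storage and burning, which include targets of the PPAR receptors, 10 were higher and 9 lower (median −0.03), with 2 past 1.5-fold higher and 1 lower. Of all 11296 genes in macrophages, 5.74% were past 1.5-fold higher and 5.67% lower. Acsl1, which activates long-chain fatty acids, had 83.5 CPM against 43.7 CPM (0.93, interval 0.71 to 1.16). Of 17 companion genes of lipid-associated macrophages, such as lysosomal cathepsins and Lgals3, 7 were higher and 10 lower (median −0.01) and none passed 1.5-fold. Of 7 signalling partners of TREM2, 2 were higher and 5 lower, none past 1.5-fold, and the adaptor Tyrobp had 876 CPM against 1117 CPM (−0.35, interval −0.40 to −0.30). Of 8 osteopontin receptor genes, 3 were higher and 5 lower (median −0.08), none past 1.5-fold. The companion, partner and receptor lists thus lay near the −0.03 of all genes. Hypoxia genes were higher in 5 of 6 cases (median 0.58) and mitosis genes in 2 of 7 (median −0.03).

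In endothelium Fabp4, Cd36 and Fabp5 stood far above their levels in macrophages, and Fabp4 and Cd36 were higher with serine/glycine-free feeding. Of the 8 genes, 6 had UMIs in both libraries, all 6 were higher with serine/glycine-free feeding, and their median log2 ratio was 1.09 against 0.04 over 4646 genes with at least 20 UMIs. Of the 5 with at least 20 UMIs, 3 were past 1.5-fold higher, where 15.5% of all genes were past 1.5-fold higher and 12.2% past 1.5-fold lower. Trem2 and Gpnmb had 1 UMI each under the serine/glycine-free diet and none under the control diet. With 49 and 33 cells, these values rest on few cells.

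Fabp4 had 11488.5 CPM in endothelial cells under the serine/glycine-free diet, against 8204 CPM under the control diet (0.49, interval 0.41 to 0.57). Every one of the 49 and 33 endothelial cells held a Fabp4 UMI, with a per-cell median of 10281 CPM and 6494 CPM, while T cells held one in 0.931% and 0.517% of cells at median depths of 1673 and 2150 UMIs. Cd36 had 1532 CPM, against 728 CPM (1.07, interval 0.82 to 1.33), and was found in 45 of 49 and 28 of 33 cells. Fabp5 had 1598 CPM, against 1392 CPM, a difference within counting error (0.20, interval −0.01 to 0.40). The Fabp4 difference did not rest on the leading cell, since its log2 ratio without the leading cell of each library was 0.48, and as a mean over cells it was 0.74.

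Apoe had 54 UMIs (208 CPM) in endothelium under the serine/glycine-free diet and 6 UMIs (22.5 CPM) under the control diet, a log2 ratio of 3.21 (interval 1.99 to 4.72). It was found in 25 of 49 and 5 of 33 cells, against 15.8% and 11.4% of the shallower T cells. The summed macrophage markers in the endothelial gate were higher as well, at 169 CPM against 41.3 CPM, with 3 and 4 of the 8 at 0, and pericyte markers stood at 243 and 225 CPM with 3 and 4 of the 6 at 0. The complement genes C1qa, C1qb and C1qc are among these macrophage markers. Together they had only 7 UMIs (26.95 CPM) in the endothelial gate under the serine/glycine-free diet and 6 UMIs (22.52 CPM) under the control diet. Per UMI of these C1q genes, endothelial cells held 7.71 Apoe UMIs (interval 3.50 to 20.1) and 1 (interval 0.27 to 3.74). Macrophages, whose gate uses the C1q genes and so favours a lower ratio, held 0.9496 and 1.03. The part of either marker list in the Apoe difference was not tested beyond this ratio.

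Lpl was low in endothelium, with 16 UMIs against 2 UMIs, a fold of 8.21 (interval 1.93 to 73.6), and 2 cells held 50% of the 16. Spp1 had 524 CPM in endothelium under the serine/glycine-free diet and 244 CPM under the control diet (1.10, interval 0.67 to 1.55). A single cell of 37412 UMIs, the same one that led for Fabp4, Fabp5 and Cd36, held 59 of the 136 Spp1 UMIs, and without the leading cell of each library the log2 ratio was 0.45. A Spp1 UMI was found in 65.3% and 90.9% of endothelial cells, at median depths of 3873 and 6875 UMIs. With cells thinned to 1000 UMIs the shares were 23.3% and 18.75%, with overlapping intervals, so no difference is read from them.

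Partner genes of the endothelial program were measured beside them. Of 10 genes of capillary endothelium, 9 were higher with serine/glycine-free feeding (median 0.48). Past 1.5-fold higher were 4 of the 10, where 15.5% of all 4646 genes were. Gpihbp1, the anchor that holds lipoprotein lipase on capillaries, had 1786 CPM against 1310 CPM (0.45, interval 0.24 to 0.65). Pparg, a nuclear receptor whose known targets include Fabp4 and Cd36, had 258 CPM against 169 CPM (0.61, interval 0.04 to 1.19). In the 20 fatty acid genes as a whole, 10 were higher and 8 lower in endothelium, with a median of 0.37 over the 9 with at least 20 UMIs.

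Across all 18 gate-by-library points, from the 9 gates with at least 30 cells in both libraries, the genes most like Fabp4 in level were Igfbp3 (Pearson r = 0.95), Sparcl1 (0.93) and Adamts9 (0.93). Fabp5 was most like Lipa (0.90), Nudt18 (0.89) and March3 (0.84), and the genes like Cd36 included Pnp and Clic4 (each 0.90). Lpl was most like Cd302 (0.88), Cbr3 (0.87) and Lifr (0.83). Apoe was most like Ctsa (0.93), Trem2 (0.93) and Msr1 (0.92), and Trem2 was most like Csf1r (0.95), Ccl9 (0.93) and Apoc2 (0.93). Gpnmb was most like Slc22a4 (0.84), Gm11884 (0.84) and Cacnb2 (0.83), and Spp1 was most like Smad3 (0.88), Clip4 (0.88) and Clec11a (0.86). Points of 1 library share its depth and free RNA, so these values are descriptions. Between members, Apoe and Trem2 were the closest pair (0.93), followed by Fabp4 and Fabp5 (0.68), while Cd36 and Spp1 were the least alike (−0.73).

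In tumour-gated cells Spp1 was lower under the serine/glycine-free diet and Gpnmb was slightly higher. Of the 8 genes, 7 were higher with serine/glycine-free feeding and Spp1 was lower, with a median log2 ratio of 0.49 against 0.03 over 16534 genes. Past 1.5-fold, 4 were higher and none lower, where 8.13% of all genes were past 1.5-fold higher and 6.5% past 1.5-fold lower. The 4 were Cd36, Fabp5, Fabp4 and Apoe, all genes with a far higher level in another gate.

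Spp1 had 7919 CPM in tumour cells under the serine/glycine-free diet, against 10452 CPM under the control diet (−0.40, with both interval bounds rounding to −0.40). A Spp1 UMI was found in 99.97% and 99.94% of tumour cells, and the per-cell median was 6795 CPM and 9454 CPM. The lower quartile (3873 and 5480 CPM) and the upper quartile (11206 and 14861 CPM) lay lower under the serine/glycine-free diet too. Thus the difference ran through the whole range of tumour cells. Hmga2, the most abundant tumour marker, was nearly level in the same cells, at 2001 CPM and 2056 CPM.

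Gpnmb had 35.4 CPM in tumour cells under the serine/glycine-free diet and 29.6 CPM under the control diet (0.26, interval 0.20 to 0.32). Thinned to 1000 UMIs, 4.15% and 3.51% of tumour cells held a Gpnmb UMI. Its level was higher in tumour cells with high hypoxia genes (Ndrg1, Bnip3, Ankrd37, Egln3, Car9 and Pdk1) in both libraries. Cells above the pooled 75th percentile of these genes, 4043 and 1822 cells, had 56.5 CPM against 26.9 CPM in the rest under the serine/glycine-free diet (1.07, interval 0.99 to 1.15), and 63.3 CPM against 23.5 CPM in the rest under the control diet (1.43, interval 1.34 to 1.52). Within cells above the percentile Gpnmb was lower under the serine/glycine-free diet (−0.16, interval −0.26 to −0.07), and in the rest it was higher (0.20, interval 0.12 to 0.27). All 6 hypoxia genes were themselves higher in the serine/glycine-free library, with a median of 0.97.

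Spp1 did not follow that score, with a log2 ratio of high over other cells of 0.02 under the serine/glycine-free diet and 0.00 under the control diet. In cells with high mitosis genes, such as Ube2c and Top2a, Spp1 was lower than in other tumour cells, at 6996 against 8475 CPM under the serine/glycine-free diet and 8496 against 11247 CPM under the control diet. Gpnmb was lower there as well, at 25.2 against 41.6 CPM and 17.8 against 34.4 CPM. The diet ratio of Spp1 was −0.28 (interval −0.29 to −0.27) among cells with high mitosis genes and −0.41 among the rest, so it was negative in every stratum of both splits.

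The other 6 genes were far lower in tumour cells than in the gate where each was highest. Fabp4 had 322 UMIs (2.36 CPM) under the serine/glycine-free diet and 128 UMIs (0.872 CPM) under the control diet, and Fabp5 had 290 UMIs (2.13 CPM) and 90 UMIs (0.613 CPM). Cd36 had 46 UMIs (0.338 CPM) against 11 UMIs (0.0749 CPM). Their log2 ratios were 1.44, 1.80 and 2.17, while the same genes were higher in the endothelial or macrophage gates too. In 1 control cell of 1093 UMIs, 15 were Fabp4 and 6 were Fabp5, and taken as a mean over cells in place of a sum the Fabp4 log2 ratio was 0.30 and that of Fabp5 1.05. Apoe had 31.5 CPM and 19.5 CPM (0.69, interval 0.62 to 0.76) and Trem2 4.42 CPM and 3.65 CPM (0.28, interval 0.11 to 0.45), whereas Lpl had 28 UMIs in each library.

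Markers of macrophages were also higher in the tumour gate under the serine/glycine-free diet, at 29.7 CPM against 17.0 CPM summed over 8 markers with none at 0, compared with 16593 and 15372 CPM in macrophages. Per C1q UMI, tumour cells held 1.27 Apoe UMIs (interval 1.21 to 1.33) under the serine/glycine-free diet and 1.40 (interval 1.32 to 1.48) under the control diet, a little above the 0.9496 and 1.03 of macrophages. For Trem2 the same ratio was 0.178 and 0.261 in tumour cells, against 0.0436 and 0.0452 in macrophages. The endothelial markers in tumour cells were lower under the serine/glycine-free diet, at 4.88 CPM against 6.66 CPM with none of 9 at 0. For 4 of these markers, Pecam1, Cdh5, Egfl7 and Esam, the sum ran the other way, at 1.23 CPM against 0.906 CPM (168 and 133 UMIs). Per UMI of these 4, tumour cells held 1.92 Fabp4 UMIs (interval 1.59 to 2.32) and 0.962 (interval 0.749 to 1.24), against 2.72 and 1.97 in endothelial cells. The part of free RNA or of joined cells in these low levels was not tested. These ratios to companion genes were chosen after the levels had been seen. The C1q genes are markers of the macrophage gate and the 4 endothelial genes markers of the endothelial gate. The gates themselves thus favour a lower ratio in the gate that the companion genes define, so no source is read from these comparisons.

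**Figure D5:**
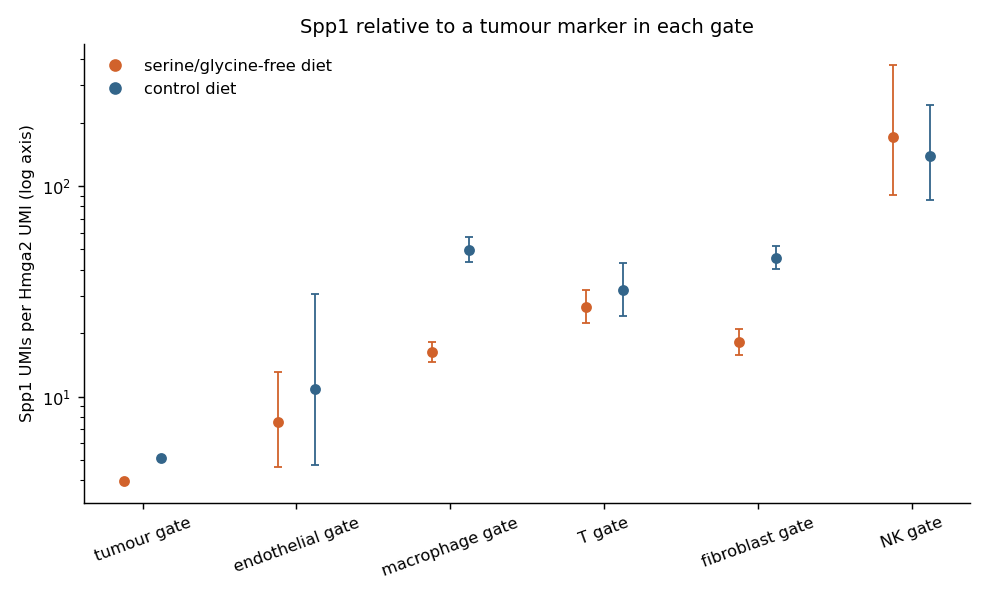
Spp1 UMIs per Hmga2 UMI (log axis) in 6 gates, with the serine/glycine-free library left of the control library and bars for the exact 95% interval. The ratio is lowest in tumour cells (3.96 and 5.08) and highest in NK cells (171 and 139). Hmga2 is a tumour-gate marker, so the gates themselves favour a low ratio in tumour cells.

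Spp1 per Hmga2 UMI was higher in macrophages, fibroblasts, T cells and NK cells than in tumour cells. Hmga2 is a marker of the tumour gate, and cells that also passed another gate were set apart as mixed. The gates themselves therefore favour a low ratio in tumour cells and a high one elsewhere, so no source of Spp1 is read from this order. Tumour cells held 3.96 Spp1 UMIs per Hmga2 UMI under the serine/glycine-free diet and 5.08 under the control diet. In macrophages the ratio was 16.2 (interval 14.5 to 18.2) and 49.7 (interval 43.3 to 57.2), and in T cells 26.7 (interval 22.3 to 32.2) and 31.9 (interval 24.2 to 43.1). In NK cells it was 171 (interval 90.1 to 376) and 139 (interval 85.4 to 244), although these rest on 9 and 16 Hmga2 UMIs. NK cells had 5466 CPM of Spp1 under the serine/glycine-free diet and 5319 CPM under the control diet, from 100 and 95 cells. In each library 5 NK cells held 50% of that Spp1, and the per-cell medians were only 883.5 and 1487 CPM. The ratio was lower under the serine/glycine-free diet, with intervals that did not overlap, in macrophages, in fibroblasts (18.1 against 45.7), in monocytes (28.5 against 69.3), in dendritic cells (7.80 against 31.4) and in tumour cells. The intervals of the 2 libraries overlapped in T cells, NK cells and endothelium. The ratios rest on 36 and 41 Hmga2 UMIs in monocytes and on 25 and 12 in dendritic cells. Hmga2 itself was higher under the serine/glycine-free diet in macrophages (65.1 against 35.4 CPM) and dendritic cells (53.1 against 26.0 CPM). It was lower in monocytes (52.4 against 60.2 CPM), fibroblasts (338 against 394 CPM) and tumour cells (2001 against 2056 CPM).

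Fibroblast-gated cells, 102 and 75 of them, also differed in Spp1. They had 6127 CPM under the serine/glycine-free diet, against 18003 CPM under the control diet (−1.55, interval −1.61 to −1.503), with per-cell medians of 1185 and 9830 CPM. Lpl ran the other way, at 449.5 CPM against 159 CPM (1.5015, interval 1.18 to 1.84), and was found in 60 of 102 and 27 of 75 fibroblasts, at median depths of 6179.5 and 8144 UMIs. In T cells, at 1673 and 2150 UMIs, it was found in 2 of 1181 and 0 of 387 cells, and the 0 allows up to 0.775% of cells with a captured UMI at that depth. Tumour markers in the gate summed to 371 and 409 CPM with none of the 3 at 0, and all 8 fibroblast markers were found in at least 10% of cells in both libraries. Fabp4 in fibroblasts rested on 1 cell in each library, with 189 of 227 UMIs and 37 of 58 UMIs, so no level is read from it.

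Over all kept cells, where the number of cells of a type and the RNA per cell cannot be told apart, 5 of the 8 genes were higher with serine/glycine-free feeding and 3 were lower (median 0.48, against 0.05 over 18077 genes). Past 1.5-fold, 4 were higher and none lower, where 8.47% of all genes were past 1.5-fold higher and 5.7% past 1.5-fold lower. Cd36 had 7.97 CPM against 3.58 CPM (1.15, interval 1.01 to 1.30), Fabp4 36.0 CPM against 18.1 CPM (0.99, interval 0.93 to 1.06), Lpl 4.88 CPM against 2.88 CPM (0.76, interval 0.59 to 0.93) and Fabp5 28.9 CPM against 18.3 CPM (0.66, interval 0.59 to 0.73). The total Fabp4 ratio exceeded the endothelial one, and cells that passed more than 1 gate supplied 1502 of 5634 UMIs under the serine/glycine-free diet and 373 of 2921 under the control diet. Spp1 had 7419 CPM against 9899 CPM (−0.42), close to its tumour ratio. Cd36 was the one member of the 8 past 1.5-fold higher in macrophages, endothelium, tumour cells and all kept cells alike. In dendritic cells it ran the other way, at 115 CPM under the serine/glycine-free diet and 178 CPM under the control diet (−0.63, interval −1.16 to −0.12).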

How the data were processed

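Single-cell RNA libraries of subcutaneous mouse tumours were analysed from the raw UMI counts per gene and cell barcode that the authors deposited. Cell Ranger is named as version 2.2.2 in the submitters' processing notes and as version 7.0.1 per the file headers. The submitters' processing notes name the mouse build mm10, which is GRCm38, and gene coordinates are those of GRCm38 (GENCODE annotation).

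Cells with at least 500 UMIs, 300 genes and at most 20% mitochondrial UMIs were kept, and Scrublet (in scanpy 1.11.5) removed 1206 doublets (5.94%) from the serine/glycine-free library and 571 (4.03%) from the control library. A cell passed a gate with at least 3 detected markers (2 for tumour) that summed to at least 500 CPM. A cell that passed exactly 1 of the 13 gates took its name, macrophage plus monocyte counted as macrophage, and other combinations were called mixed. UMIs were summed per gate and library. Ratios are log2 of serine/glycine-free over control CPM with exact conditional intervals (scipy 1.17.1). A gene counted as past the fold beyond 1.5 in either direction with at least 20 UMIs in both libraries together. Only the ratios and their intervals were tested on simulated data, which were Poisson counts with known folds. That test covers neither the gates nor differences between cells or libraries.

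Genes named from the lists had at least 100 UMIs and were among the 3 highest or 3 lowest past 1.5-fold. Tyrobp and Gpihbp1 were named outside that rule, after their values were seen. The 8 genes, the lists and the gates were chosen with earlier results of these data known. Motifs, companion genes, gene pairs and the count of 20 leading cells were chosen after the levels were seen. PCR duplicates are collapsed by UMI, but intervals and limits of a count of 0 (3 counts) cover counting error only. Clec7a is not among the gene symbols of the matrices and was left out of its list.
1 gene of the likeness ranking is not reported here.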

Additional observations from a re-analysis of the deposited data

Results flagged for a closer look

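Spp1, and by a narrow margin Apoe, had diet ratios of opposite sign in different gates. The Apoe log2 ratio was 3.21 in endothelial cells and 0.69 in tumour cells, where the level was higher under the serine/glycine-free diet, and −0.0156 in macrophages, a value whose sign turned under 4 of 13 alternatives, so no direction is read from it. The Spp1 log2 ratio was 1.10 in endothelial cells, where the level was higher under the serine/glycine-free diet, and −0.74 in macrophages and −0.40 in tumour cells, where it was lower. With 1 library per diet these differences between gates were not tested. The endothelial values rest on 54 and 6 Apoe UMIs and on 136 and 65 Spp1 UMIs.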

How the results depend on the processing

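For 30 gene ratios, 349 values under 13 alternatives were computed, of which 282 stayed within counting error of the reported value, 63 moved beyond it and 4 turned sign. All 4 were Apoe in macrophages (reported −0.02), at 0.0070 with 2 marker genes, 0.0112 with median scaling, 0.0143 as a mean over cells and 0.0086 with thinned cells. Spp1 in macrophages ranged between −1.03 and −0.19, the second value with cells of a second gate counted in, an alternative chosen after seeing the data. Spp1 in endothelium was 0.45 without the leading cells and 0.28 as a mean over cells. The median of the 8 genes over all kept cells was 0.37 as a mean over cells (reported 0.48). With no UMI minimum, genes past 1.5-fold numbered 1645 higher and 1681 lower in macrophages (reported 648 and 640), 2438 and 1793 in endothelium (718 and 569), 2710 and 2215 in tumour cells (1345 and 1074), and 2831 and 2159 over all kept cells (1531 and 1030). The cause of these shifts was not tested, except that the last setting tests more genes. Few UMIs were counted for Lpl and Cd36 in tumour cells and for Trem2 and Gpnmb in endothelium, which limits what can be read there. No paired analysis was possible because each diet has 1 library, and for the same reason no replicate could be left out.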
